A study of Mus musculus with 20 samples.

Results

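Chromatin accessibility at Esrrb was described element by element in a series of 20 ATAC-seq libraries, in which the Tn5 transposase cuts and tags open DNA. The elements were found by position alone. Every listed peak on mm10 chr12:86341000-86542000, which holds Esrrb at 86361117-86521628 on the forward strand with about 20 kb on each side, was taken, and overlapping peaks (1 bp or more) of any library were joined. This gave 53 elements out of 335858 merged regions in the genome. Each element is named by the distance of its middle from the first annotated Esrrb start, so that the +141 kb element lies 141 kb 3′ of that start.

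The libraries came from mouse embryonic fibroblasts (MEFs, 1 library), embryonic stem cells (ESCs, 3 libraries) and MEFs on their way to induced pluripotency (16 libraries). The MEFs were made from E13.5 embryos of crosses between OG2 males, which carry a GFP reporter driven by Oct4 regulatory sequence, and 129 females. The ESCs, grown in 2iL medium, came from embryos of OG2 mice, so MEF-derived cells and ESCs differ in strain background, and its part in the differences between them was not tested. In one path MEFs received retroviral pMXs vectors for Oct4 and Nanog, and in the other path vectors for Oct4 and NanogN70, the fusion that the study calls NanogBiD, in which the BRG1-binding part of SS18, a BAF chromatin remodeling subunit, sits at the N-terminus of NANOG. Each path has 1 library on each of 8 days (0, 1, 3 and 5, and then 7, 8, 10 and 12). Day 0 follows the infections, so the day 0 cells already carried the vectors. The study's methods give a change of medium from iCD3 to N2B27 with 2iL after 7 days or at another set time, and the day used for these libraries is not stated. The transduced cells were sequenced in bulk, so an element open in fewer cells and an element less open in each cell cannot be told apart.

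Esrrb encodes estrogen-related receptor beta, an orphan nuclear receptor that binds DNA as a monomer at a single extended core site and needs no known hormone. In naive ESCs it is a member of the pluripotency network with OCT4, SOX2, NANOG, KLF4 and TFCP2L1, is a direct target of NANOG, and is repressed by TCF7L1 when GSK3 is active. It has been used as a reprogramming factor, and its transcripts start from several promoters spread along a long first intron.

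The GENCODE M21 annotation gives Esrrb 6 transcripts with 5 separate starts. Esrrb-204 starts at 0 kb, Esrrb-202 and Esrrb-203 at +60.5 kb, Esrrb-201 at +60.8 kb, Esrrb-206 at +109.0 kb and the non-coding Esrrb-205 at +143.3 kb. Exon 2 of the longer transcripts lies at +109 kb, so all starts up to +60.8 kb are followed by a long intron. The other annotated gene in the window is a processed pseudogene, Gm48101, 5′ of Esrrb. Of the 53 elements, 39 lay within an intron, 7 overlapped an exon, 5 lay upstream and 2 downstream.

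The sequences below carry the results that follow. They are the promoter at +61 kb, which was open in MEFs, ESCs and both paths; the element at +4 kb, which was listed with NanogN70 alone; the ESC-only elements at +109, +138 and +141 kb, which gained peaks on at least 4 days with NanogN70; and the ESC-only element at +143 kb, which gained none. All are forward strand sequences of GRCm38, the genome that UCSC calls mm10, taken from RefSeq. Capitals mark matches, on either strand, to the motifs described next. The promoter stops at the base before the Esrrb-202 start and the +109 kb sequence at the base before the Esrrb-206 start. The +4 kb window is centred midway between the outermost of its NanogN70 summits, and the +138, +141 and +143 kb windows are set on the median ESC summit.
+4 kb, intron 1, chr12:86364762-86365061: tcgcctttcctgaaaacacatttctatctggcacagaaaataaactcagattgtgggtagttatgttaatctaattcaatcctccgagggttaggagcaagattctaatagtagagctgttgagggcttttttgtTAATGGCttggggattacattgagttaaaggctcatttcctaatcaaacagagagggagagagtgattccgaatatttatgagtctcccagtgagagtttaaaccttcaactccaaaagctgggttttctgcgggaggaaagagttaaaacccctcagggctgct
+61 kb promoter, chr12:86421394-86421643: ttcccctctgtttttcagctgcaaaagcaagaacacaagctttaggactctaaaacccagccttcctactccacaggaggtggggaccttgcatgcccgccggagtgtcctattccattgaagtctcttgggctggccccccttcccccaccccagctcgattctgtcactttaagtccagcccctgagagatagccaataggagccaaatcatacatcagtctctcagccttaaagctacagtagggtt
+109 kb, intron 1 next to exon 2, chr12:86469933-86470116: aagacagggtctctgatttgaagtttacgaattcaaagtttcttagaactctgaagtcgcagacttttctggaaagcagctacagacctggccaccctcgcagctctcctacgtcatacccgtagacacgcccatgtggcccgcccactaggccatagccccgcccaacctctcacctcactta
+138 kb, intron 3, chr12:86498735-86499034: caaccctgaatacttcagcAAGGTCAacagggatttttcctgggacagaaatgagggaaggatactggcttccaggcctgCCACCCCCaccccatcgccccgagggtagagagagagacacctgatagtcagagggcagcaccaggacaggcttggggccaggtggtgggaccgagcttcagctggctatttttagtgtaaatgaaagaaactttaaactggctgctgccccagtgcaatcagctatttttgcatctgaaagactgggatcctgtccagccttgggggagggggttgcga
+141 kb, intron 3, chr12:86501553-86501852: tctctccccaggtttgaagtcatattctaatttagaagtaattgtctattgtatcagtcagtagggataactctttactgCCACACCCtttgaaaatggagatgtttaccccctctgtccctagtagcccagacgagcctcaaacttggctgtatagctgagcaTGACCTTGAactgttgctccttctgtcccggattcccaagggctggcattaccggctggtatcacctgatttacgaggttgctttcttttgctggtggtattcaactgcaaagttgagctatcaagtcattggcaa
+143 kb, intron 3 and Esrrb-205 exon 1, chr12:86504328-86504627: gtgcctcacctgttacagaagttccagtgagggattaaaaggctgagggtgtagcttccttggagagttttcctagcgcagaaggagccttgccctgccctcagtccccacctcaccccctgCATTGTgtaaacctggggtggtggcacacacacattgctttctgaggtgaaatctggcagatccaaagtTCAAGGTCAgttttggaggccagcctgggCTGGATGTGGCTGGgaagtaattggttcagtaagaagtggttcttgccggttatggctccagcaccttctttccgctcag

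The motifs searched were ESRR (TCAAGGTCA) and its short core (AAGGTCA), which lies inside the full ESRR motif, KLF (GGGNGTGG), OCT (ATGCNNAT), SOX (CNTTGT), the joined OCT-SOX motif, NANOG (GCCATTA), STAT (TTCCNGGAA), AP-1 (TGANTCA), TEAD (GGAATG), RFX (GTTGCNNGG), TFCP2L1 (CCAG on both sides of 6 free bases) and the CTCF core (AGNGGGCGC), on both strands. The +141 kb sequence holds a full ESRR match on the reverse strand at 86501717-86501725, 14 bases 3′ of the ESC summit, and a KLF match at 86501633-86501640. A full ESRR match also lies in the +143 kb sequence, beside a SOX match and a TFCP2L1 match. The +138 kb sequence holds the short ESRR core and a KLF match, and the +4 kb sequence holds a NANOG match. The +61 kb promoter and the +109 kb sequence hold none of these motifs in the windows shown.

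The full ESRR motif was found in the 300 bases around the top summit of 2 of the 18 ESC-only elements, against 1.52% of the ESC-only regions of the genome and 0.703% of all regions. KLF was found in 8 of the 18, against 17.8% and 11.7%, and SOX in 6 of the 18, against 53.6% and 49.6%. OCT was found in 4 (14.7% of ESC-only regions), TEAD in 3 (18.5%), the short ESRR core in 3 (8.64%), and AP-1 (8.83%), RFX (5.39%) and TFCP2L1 (4.21%) in 1 each. No ESC-only element at Esrrb held the joined OCT-SOX (0.77%), NANOG (3.03%), STAT (1.04%) or CTCF (3.15%) motif in that window. In the +61 kb promoter, KLF and SOX were missing where 15.9% and 36.3% of 32851 RefSeq promoters of the same 250 bases held them. These matches describe letters and not bound sites.

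**Figure D1:**
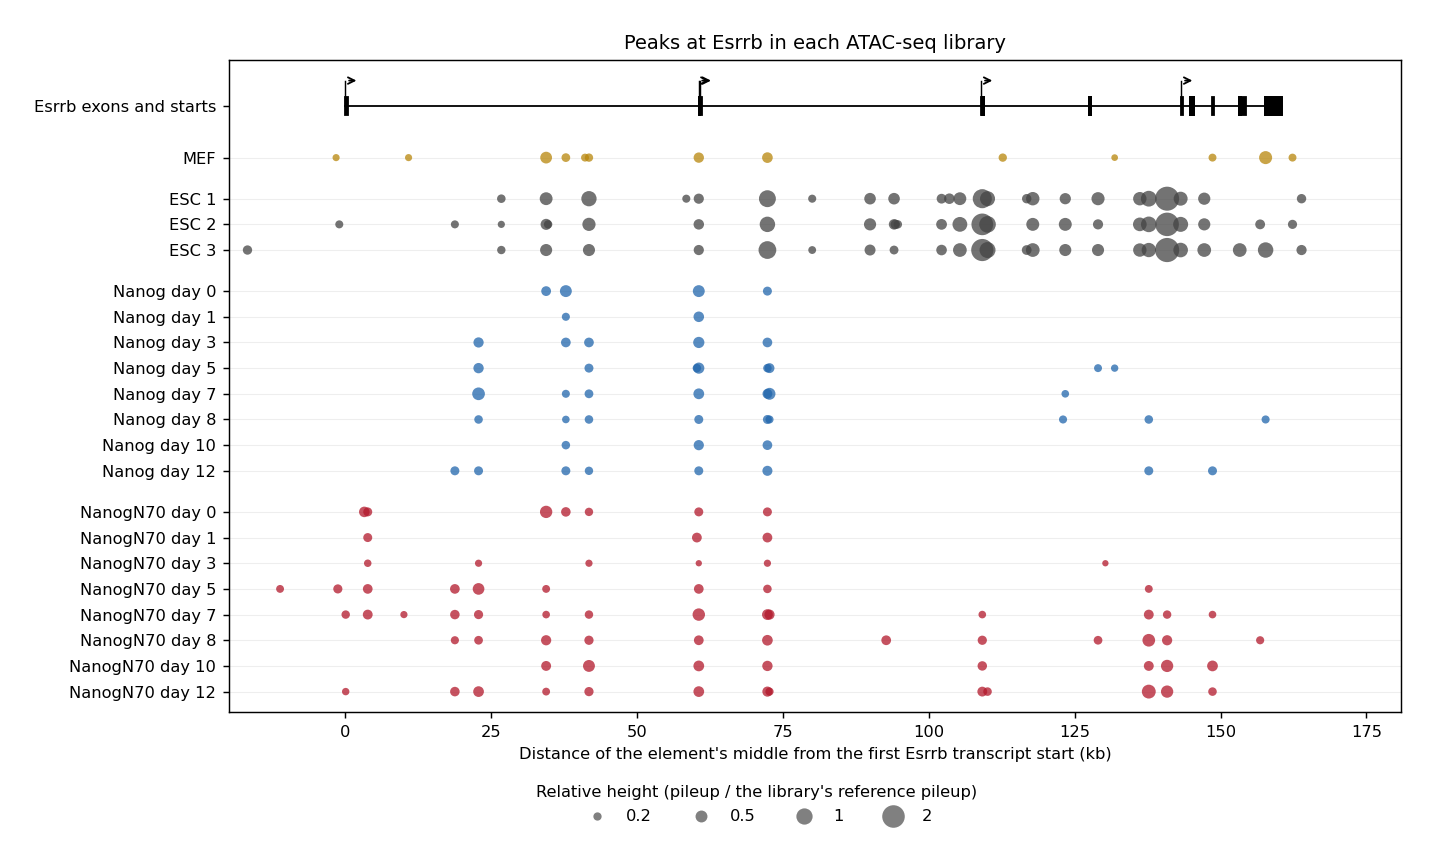
Every listed peak at Esrrb, by the distance of its element from the first transcript start in kb (horizontal) and by library (vertical), with dot area set by relative height. Exons are black boxes and arrows mark annotated starts. Between +80 and +164 kb the ESC libraries are densely dotted, the Nanog libraries almost empty, and the NanogN70 libraries from day 7 on carry dots at +109, +138 and +141 kb.

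The peak lists differ in depth, which is unknown. The guide used here is the reference pileup, the median tag count at the highest summit of the 14217 regions that every library listed, which ranged from 16 to 60. The height of an element is given as its pileup and as a relative height, the pileup divided by that reference. The ESC libraries shared their peak regions in pairs with a Jaccard index (shared over union) of 0.629 to 0.65. NanogN70 day 3 stood apart, with the highest reference pileup, 23.3% of its regions in no other library (1.45% to 14.3% in the other time course libraries, 29.0% in MEFs and 7.16% to 13.8% in ESCs) and peaks at the starts of 12 of 14 leukocyte genes, against 2 to 5 in the other time course libraries, 6 in MEFs and 7 to 9 in ESCs. It had 6 of the 53 elements and no ESC-only one, and the main counts are also given without day 3. Of 10 fibroblast markers, 10 had a peak in MEFs and 7 in each ESC library, and of 10 pluripotency markers 6 had a peak in MEFs and 9 or 10 in ESCs. In the time course 5 to 10 fibroblast markers had a peak. Pluripotency markers with a peak numbered 7, 5, 7, 8, 8, 8, 5 and 5 with Nanog and 6, 5, 7, 8, 6, 5, 5 and 9 with NanogN70 in the order of the days, so fewer were listed with NanogN70 on days 0, 7 and 8 and more on day 12. These markers include Nanog and Pou5f1 (Oct4), where reads from the vectors may add to the peaks.

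At Esrrb, ESCs and MEFs shared 4 elements in all ESC libraries (+34, +42, +61 and +72 kb) and otherwise differed in most. There were 18 ESC-only elements, with a peak in at least 2 ESC libraries and none in MEFs, or 34.0% of the 53 elements where 16.5% of all regions were of that class. All 3 ESC libraries listed 15 of them. When each library was reduced to its 44126 top-scoring peaks, 7 of the 18 were still ESC-only, and +42 kb, whose MEF peak was lost, joined them. Only 7 elements, or 13.2%, were MEF-only, with a peak in MEFs and in no ESC library, where 22.2% of all regions were. The MEF-only count was 3 at a minimum score of 100 and 0 with the reduced peak lists. Of the 18 ESC-only elements, 17 lay 3′ of the +61 kb promoter, against 3 of the 7 MEF-only ones. Another 6 elements were found in MEFs and in at least 1 ESC library, 10 in 1 ESC library and not in MEFs, and 12 in the time course alone.

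The promoters are described first. The only element at a start that was open in nearly all libraries was the +61 kb element (86421433-86421924), which overlaps part of the first exons of Esrrb-201, Esrrb-202 and Esrrb-203. Its pileup was 14 in MEFs and 11, 14 and 10 in the ESC libraries. With Nanog it was 8, 6, 10, 12, 15, 8, 8 and 6 in the order of the 8 days. With NanogN70 it was 6, not listed, 5, 7, 21, 8, 11 and 16 in the same order. The groups overlapped, since the relative height was 0.359 in MEFs, 0.352 ± 0.0139 in ESCs (SD, n = 3), 0.25 to 0.5 with Nanog and 0.0833 to 0.553 with NanogN70. A peak was thus listed on 8 days with Nanog and on 7 with NanogN70. The paths differed on day 1 alone, which the test over days set out further on cannot decide (two-sided exact permutation p = 1.0, adjusted p = 1.0). The summit of the element moved by at most 116 bases from the median ESC summit. At a minimum score of 100 the difference in days turned, with 2 more days with NanogN70. With the same number of top-scoring peaks in each library there were 3 more days with Nanog. Joining peaks up to 200 bp apart added the +60 kb peak of NanogN70 day 1 to the element, and the difference was 0.

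No other start had a MEF peak within 1 kb. At the Esrrb-204 start, the +0 kb element was listed with NanogN70 alone, at a pileup of 8 on day 7 and 6 on day 12. The -1.1 kb element near it was listed in 1 ESC library, at a pileup of 7. Just 5′ of the +61 kb promoter, the +60 kb element was listed once in each path, at 6 with Nanog on day 5 and at 5 with NanogN70 on day 1. At the start of the non-coding Esrrb-205, the +143 kb element had pileups of 23, 32 and 23 in ESCs and no peak in MEFs or on any day of either path. These starts therefore carried few weak peaks in the time course, and the strongest start in ESCs was that of Esrrb-206.

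The start of Esrrb-206 lies in the +109 kb element (86469962-86470588), which also overlaps exon 2 of the longer transcripts. In ESCs its pileup was 45, 70 and 56, a relative height of 1.73 ± 0.281 (SD, n = 3). MEFs and all 8 Nanog libraries had no peak there. With NanogN70 no peak was listed through day 5, and the pileup was then 6 on day 7, 7 on day 8, 8 on day 10 and 13 on day 12. The NanogN70 values lay well under the ESC range, at 9.15%, 15.6%, 16.5% and 18.4% of the mean ESC relative height. Their summits lay within 34 bases of the median ESC summit.

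The neighbouring +110 kb element in intron 2 (86470664-86471682) followed on day 12 alone. Its pileup was 27, 40 and 28 in ESCs and 9 with NanogN70 on day 12, or 23.0% of the mean ESC relative height. It was listed in no other library.

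The +141 kb element in intron 3 (86501465-86502450) was the strongest element of the gene in ESCs, with a mean score of 1370, where the score rises with the strength of the peak caller's p-value, as -10 log10 p. Its ESC pileups were 73, 83 and 67, a relative height of 2.26 ± 0.066 (SD, n = 3). No peak was listed in MEFs, on any Nanog day, or with NanogN70 before day 7. From then on the NanogN70 pileup was 8, 9, 15 and 22 on days 7, 8, 10 and 12, which is 9.32%, 15.3%, 23.7% and 23.8% of the mean ESC relative height. All 4 values were below the 3 ESC values, and the NanogN70 summit on days 10 and 12 fell on the base of the median ESC summit, with offsets of -25 and 9 bases on days 7 and 8.

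The +138 kb element in the same intron (86498319-86499312) was the first ESC-only element listed with NanogN70 and came nearest to the ESC level. Its ESC pileups were 30, 35 and 22 and its relative height 0.872 ± 0.0989 (SD, n = 3). With NanogN70 the pileup was 4, 12, 15, 9 and 29 on days 5, 7, 8, 10 and 12, and the day 12 relative height of 0.707 was 81.1% of the ESC mean. With Nanog a peak was listed at 7 on day 8 and at 6 on day 12, or 25.1% and 28.7% of the ESC mean. The peak summit was not at the same place throughout. On days 5 to 10 the NanogN70 summits lay 141 to 172 bases 3′ of the ESC summit, with the Nanog day 12 summit at 156 bases, while the Nanog day 8 summit lay 27 bases from the ESC summit and the NanogN70 day 12 summit fell on it.

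**Figure D2:**
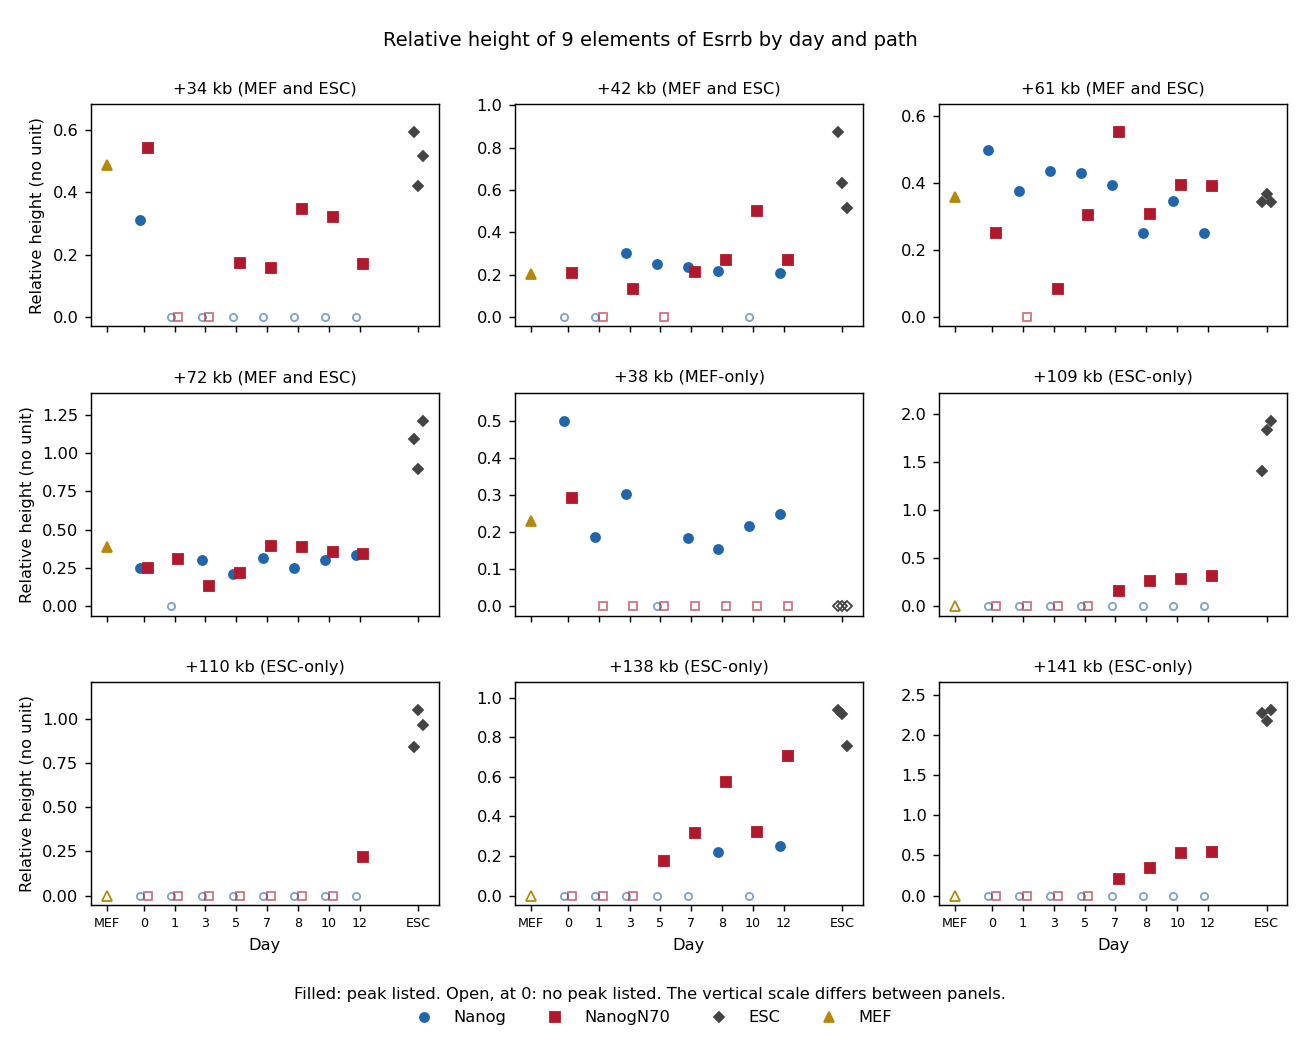
Relative height (pileup divided by the reference pileup of the library, no unit) of 9 elements by day, with MEFs at the left and the 3 ESC libraries at the right of each panel. Filled symbols are listed peaks and open symbols at 0 are libraries without a peak. At the +61 kb promoter the groups overlap, +109 and +141 kb have NanogN70 points from day 7 and no Nanog point, and +138 kb reaches 0.707 with NanogN70 on day 12.

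The days with a peak were compared between the paths by exact permutation (two-sided). Each daily difference kept or lost its sign in all 256 combinations, and p was adjusted by the Benjamini-Hochberg method over the 233354 regions with a peak on any day. The test cannot give a p under 0.00781, which needs a difference on all 8 days. Days on which the paths agree do not count. An adjusted p under 0.05 would need very many regions at that lowest p. Since each path was followed once, its 8 days are not biological replicates. Over all regions 0 had an adjusted p under 0.05 (0.0%), while before adjustment 671 (0.288%) had a p under 0.05 with more days with NanogN70 and 816 (0.35%) with more days with Nanog. The +109 and +141 kb elements were each listed on 4 NanogN70 days and on 0 Nanog days (p = 0.125 in this exact test, adjusted p = 1.0). The +138 kb element had 5 days against 2 (exact p = 0.25, adjusted p = 1.0), and the +110 kb element 1 day against 0 (exact p = 1.0). Each p is the lowest that the test can give for the number of days on which the paths differed. The test therefore could not decide these differences.

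The pattern of +109 and +141 kb, a peak in all 4 NanogN70 libraries from day 7 to day 12 and in no Nanog library, was picked out after the values were seen. Those 2 of the 18 ESC-only elements made 11.1%, where 288 of 55446 ESC-only regions had it (0.519%). Both are strong in ESCs, and among the 1154 ESC-only regions with a mean ESC score at least that of the +109 kb element 67 had the pattern (5.81%). Depth differed between the paths on some of these days. The reference pileup was 38 in both day 7 libraries, 32 with Nanog and 26 with NanogN70 on day 8, 23 and 28 on day 10, and 24 and 41 on day 12. The part of depth in these peaks was not tested.

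The 4 ESC-only elements with a peak on NanogN70 day 12 (+109, +110, +138 and +141 kb) had the highest mean ESC relative heights of the 15 that all 3 ESC libraries listed, at 0.872 to 2.26 (median 1.34). The 2 listed on other days alone had 0.495 and 0.52 (median 0.508). The 9 with a peak on no day had 0.186 to 0.785 (median 0.582), so height in ESCs did not separate them from the 2 listed on other days. The part of ESC height in what was listed was not tested.

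The other ESC-only elements had a peak on no day or on at most 1 day in each path. The +123.4 kb element, at 14, 23 and 15 in ESCs, was listed with Nanog on day 7 at 6. The +129 kb element, at 20, 13 and 15 in ESCs, was listed with Nanog on day 5 at 5 and with NanogN70 on day 8 at 6. Among the elements with the highest ESC scores, +118 kb (21, 23 and 20) and +90 kb (15, 20 and 12) had a peak on no day.

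In all, 12 of the 18 ESC-only elements (66.7%) had a peak on no day, against 66.1% of all ESC-only regions. NanogN70 opened 5 of the 18 on at least 1 day (27.8%, against 30.8%) and Nanog 3 (16.7%, against 17.3%). NanogN70 alone opened 3, which were +109, +110 and +141 kb (16.7%, against 16.6%), and Nanog alone 1 (5.56%, against 3.06%). By these counts Esrrb was close to the genome. The number of days gave another picture, since 3 ESC-only elements (16.7%) had at least 3 more days with NanogN70, against 5.22% of ESC-only regions, and 0 had at least 3 more days with Nanog, against 0.615%. At a minimum score of 100 the difference was 3 days at +141 kb and 2 days at +109 and at +138 kb, which left 1 of the 3.

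The counts by day show when the ESC-only elements were listed. Of the 18, the Nanog libraries listed 0, 0, 0, 1, 1, 1, 0 and 1 on the 8 days, and the NanogN70 libraries 0, 0, 0, 1, 3, 4, 3 and 4. Over days 0 to 5 the mean was 0.25 in both paths, or 1.39% of the 18, where the same libraries listed 3.67% (Nanog) and 7.31% (NanogN70) of all ESC-only regions. Over days 7 to 12 it was 0.75 ± 0.5 with Nanog and 3.5 ± 0.577 with NanogN70 (SD over 4 days), or 4.17% and 19.4%, where 6.54% and 11.8% of all ESC-only regions were listed. With NanogN70 the share at Esrrb was under that of the genome through day 5 and over it from day 7. The split at day 7 was chosen after the values were seen. The mean daily difference over all 8 days was 1.38 elements (SD 1.51), and it was 1.57 without day 3.

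**Figure D3:**
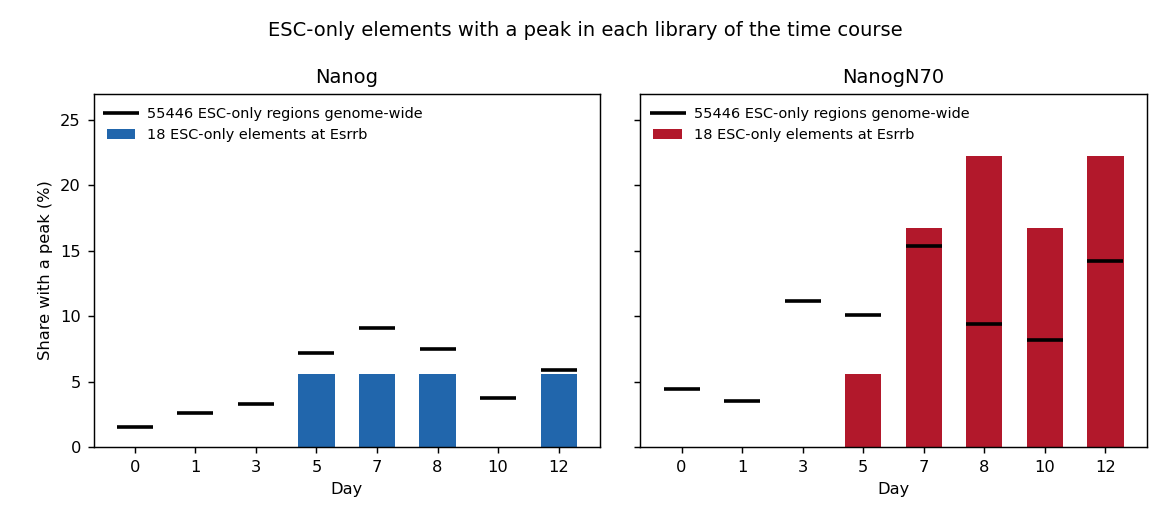
Share of the 18 ESC-only elements of Esrrb with a peak in each library (bars, in %) by day, for Nanog at the left and NanogN70 at the right, with the share of the 55446 ESC-only regions of the genome in the same library (black lines). With NanogN70 the bars are at 16.7% or 22.2% from day 7 on and above the lines, and with Nanog they stay at or under 5.56%.

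Counting all classes, the Nanog libraries listed 4, 2, 5, 8, 7, 9, 3 and 8 elements and the NanogN70 libraries 7, 3, 6, 9, 14, 12, 8 and 13. The mean daily difference was 3.25 elements (SD 2.25). It was 3.57 without day 3 and 1.88 with the same number of top-scoring peaks in each library. The mean share of the 53 elements was 17.0% with NanogN70 and 10.8% with Nanog, where 19.1% and 17.0% of all regions were listed. The NanogN70 library listed more elements on all 8 days, and a larger share of all regions on 4 of them (days 0, 1, 3 and 12). Of the 28 elements with a peak on any day, 18 had more days with NanogN70 (64.3%, against 51.0% of the 233354 regions), 7 more with Nanog (25%, against 31.3%) and 3 as many. At least 3 more days with NanogN70 were found for 6 of the 28 (21.4%), against 6.39% of the 233354 regions, and at least 3 more with Nanog for 1 (3.57%), against 5.45%. The count of 6 was the same without day 3 and fell to 3 at a minimum score of 100. Of the 6, +109, +138 and +141 kb were described above, and +4, +19 and +34 kb lie in the 5′ part of intron 1.

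The +4 kb element (86364724-86365141) was listed with NanogN70 and nowhere else. Its pileup was 6, 4, 9, 7 and 12 on days 0, 1, 3, 5 and 7, and there was no peak on days 8, 10 and 12 or in MEFs, ESCs or any Nanog library. It was thus present from the start and last listed on day 7, the day on which +109 and +141 kb were first listed (exact permutation p = 0.0625, adjusted p = 1.0). The +19 kb element (86379644-86380096) had pileups of 7, 11, 5 and 12 with NanogN70 on days 5, 7, 8 and 12, 6 with Nanog on day 12 and 7 in 1 ESC library (4 days against 1, exact p = 0.25, adjusted p = 1.0).

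The +34 kb element (86395315-86395711) was open in MEFs and in ESCs, at 19 in MEFs and 19, 16 and 15 in the ESC libraries. With Nanog it was listed on day 0 alone, at 5. With NanogN70 it was 13 on day 0, not listed on days 1 and 3, and 4, 6, 9, 9 and 7 on days 5, 7, 8, 10 and 12. This element of both end states had no listed peak on 7 of 8 days with Nanog and on 2 with NanogN70 (exact p = 0.0625, adjusted p = 1.0). At a minimum score of 100 the difference fell from 5 days to 2. Its relative height with NanogN70 was 34.1%, 30.9%, 67.8%, 62.9% and 33.4% of the ESC mean on those 5 later days.

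A single element showed the opposite. The +38 kb element (86398575-86399212) was MEF-only, at 9 in MEFs. With Nanog it was 8, 3, 7, 7, 5, 5 and 6 on days 0, 1, 3, 7, 8, 10 and 12, and with NanogN70 it was 7 on day 0 and listed on no later day. It was listed on 7 days with Nanog against 1 with NanogN70, and was the 1 element of the 28 with a p under 0.05 before adjustment (exact permutation p = 0.0312, adjusted p = 1.0). This 1 of 28 is 3.57%, against the 0.35% above. The peaks were not all at 1 place, since the offset from the MEF summit (86399071) was -8 and -18 bases with Nanog on days 1 and 12, -398 to -180 bases on the other 5 Nanog days and -262 bases with NanogN70 on day 0. The result rested on few weak peaks: at a minimum score of 100 the difference fell to 1 day, and without day 1, 3, 7, 8, 10 or 12 the p was 0.0625. The next MEF-only elements by score were +149 kb, at 7 in MEFs, which lay over exon 4 of Esrrb-205 and was listed at 6, 11 and 9 with NanogN70 on days 7, 10 and 12 and at 6 with Nanog on day 12, and +113 kb, at 8 in MEFs and listed nowhere else.

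Some elements were listed on similar numbers of days in both paths. The +72 kb element in intron 1 (86433202-86433684) was at 15 in MEFs and at 35, 34 and 35 in ESCs. With Nanog it was 4, not listed, 7, 6, 12, 8, 7 and 8 on the 8 days, and with NanogN70 6, 5, 8, 5, 15, 10, 10 and 14. Its relative height was 0.133 to 0.395 over the time course, against 0.385 in MEFs, and below all ESC values, whose mean was 1.07 ± 0.158 (SD, n = 3). The +42 kb element, at 8 in MEFs and at 28, 24 and 15 in ESCs, was listed on 5 days with Nanog and 6 with NanogN70 at 5 to 14. The +23 kb element was absent from MEFs and ESCs but was listed in both paths on days 3, 5, 7, 8 and 12, at 8, 10, 22, 7 and 6 with Nanog and 8, 11, 10, 6 and 16 with NanogN70. The +73 kb element, also absent from MEFs and ESCs, was at 9, 19 and 6 with Nanog on days 5, 7 and 8 and at 13 and 8 with NanogN70 on days 7 and 12. It starts at 86433703, right beside the +72 kb element, which MEFs and ESCs listed. Both become a single element when peaks up to 200 bp apart are joined.

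**Figure D4:**
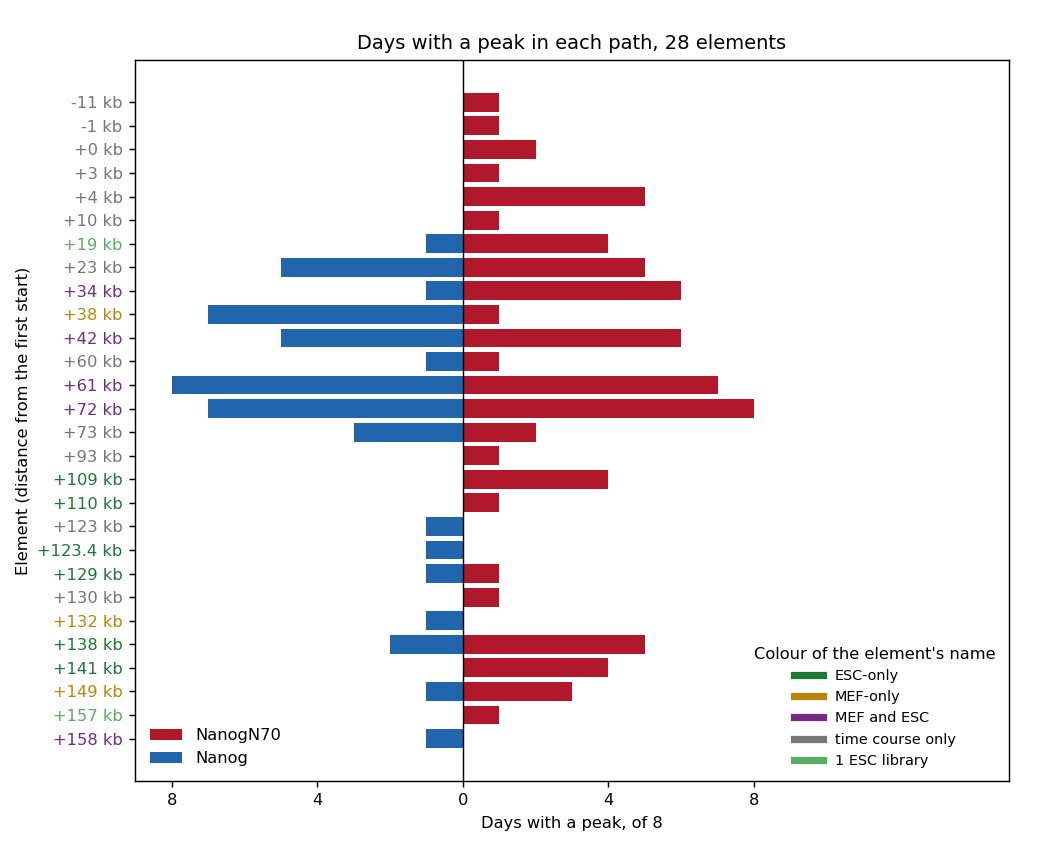
Days with a peak, of 8, for the 28 elements listed on any day, to the right for NanogN70 and to the left for Nanog, ordered from 5′ to 3′. The colour of a name gives its class. At +4, +19, +34, +109, +138 and +141 kb the NanogN70 bar is at least 3 days longer, and at +38 kb the Nanog bar is 6 days longer.

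The partners of Esrrb were described in the same way. They were 17 genes of the naive pluripotency network. Among these 17 were the core factors Nanog, Pou5f1 and Sox2 and the Kruppel-like factors Klf2, Klf4 and Klf5. The 17 also held the DNA-binding factors Tfcp2l1, Prdm14, Sall4 and Nr5a2, the repressor Tcf7l1 and the coactivator Ncoa3. Within 20 kb of these genes there were 126 ESC-only regions, of which NanogN70 opened 54 (42.9%, against 30.8% of all ESC-only regions) and Nanog 22 (17.5%, against 17.3%) on at least 1 day. More were opened with NanogN70 at 13 of the 16 partners with such regions (81.2%), where this held for 39.5% of 16792 protein-coding genes with such regions, and more with Nanog at 0, where it held for 5.66%. The 16792 genes were not matched to the partners in their number of ESC-only regions, on which this share depends. Reads from the vectors cannot be told from the exons of Nanog and Pou5f1, and without both genes the counts were 50 and 21 of 118. The share opened with NanogN70 was 88.9% at Sox2, 71.4% at Tfcp2l1, 32.0% at Tcf7l1 and 0.0% at Klf5 and Tbx3, and Esrrb with 27.8% was in the lower part of this range. At least 3 more days with NanogN70 were found for 3 of 18 ESC-only elements at Esrrb, 4 of 25 at Tcf7l1 and 2 of 12 at Ncoa3. There was 1 such region each at Sox2, Tfcp2l1, Prdm14 and Nr0b1, and 0 at the other partners. Esrrb thus shared this trait with some partners.

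**Figure D5:**
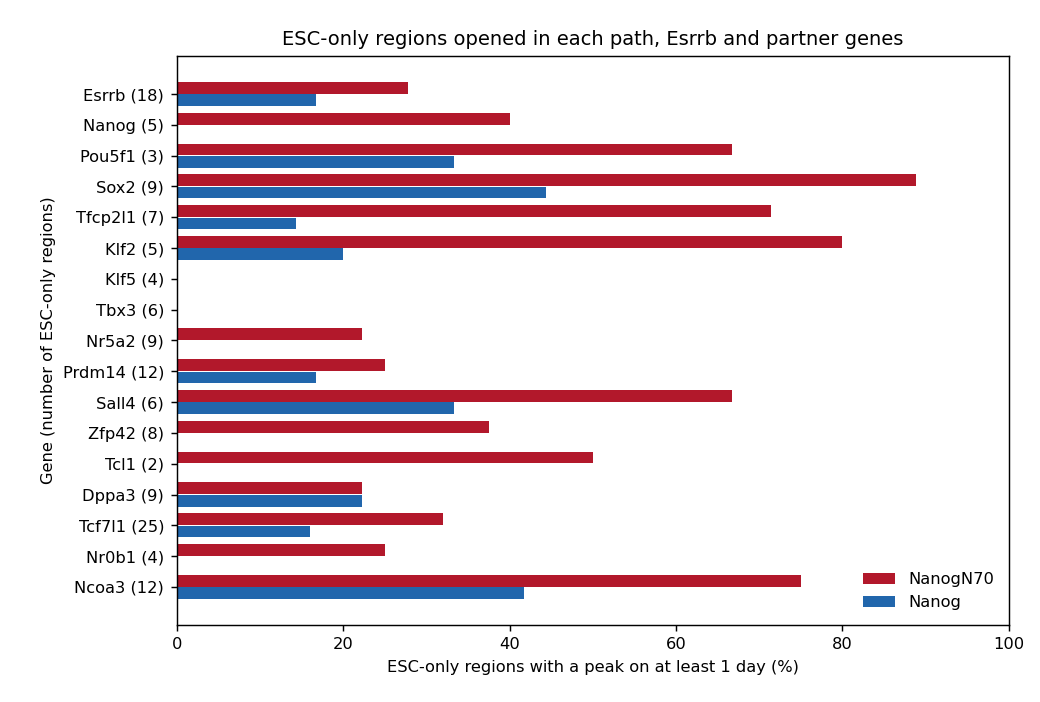
Share of the ESC-only regions within 20 kb of a gene that had a peak on at least 1 day (in %), for NanogN70 and Nanog, for Esrrb and the 16 partner genes with such regions, whose number is in brackets. Sox2 has the longest NanogN70 bar, at 88.9%, Klf5 and Tbx3 have none, and Esrrb is at 27.8% and 16.7%.

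Near gene starts, within 2 kb of any annotated start, 10 of the 17 partners (58.8%) had a peak on all 8 days in both paths, as Esrrb did, where 67.5% of 17515 protein-coding genes with a peak there in any library did. More days were found with NanogN70 at 4 (23.5%, against 14.7% of those genes; Sall4 with 7 against 6, Zfp42 and Tcl1 with 1 against 0, and Nr0b1 with 3 against 0) and with Nanog at 2 (11.8%, against 8.2%; Nanog and Dppa3, each with 7 against 4). At Esrrb the +61 kb promoter gave such a peak on 8 days with Nanog and 7 with NanogN70, and the elements within 1 kb of a start that the time course listed with NanogN70 alone were +0, +109 and +110 kb. For Nanog and Pou5f1, reads from the vectors may add to the peaks near starts.

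The genes whose highest summit near a start followed that of Esrrb most closely over the 20 libraries, among 17461 protein-coding genes, were Adcyap1 (Pearson r = 0.947 across libraries, on the log2 scale of relative height), Emx1 (0.947), Oprm1 (0.945), Sgo2b (0.944) and Mcf2 (0.942). No p is given, since the genes were ranked by this value. The libraries fall into ESCs and all others, and Esrrb had a mean log2 relative height of 0.77 in ESCs, -1.48 in MEFs, -1.78 with NanogN70 and -1.46 with Nanog, with libraries without a summit set to the lowest pileup of their list. The NanogN70 mean includes day 3, where the relative height was 0.0833, against 0.25 to 0.553 on the other NanogN70 days. No mean without day 3 is given, so both paths are not ranked by these means. All 5 genes were likewise highest in ESCs, at -0.99 to -0.29.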

How the data were processed

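ATAC-seq was done on 1 MEF, 3 ESC and 16 time course libraries. Per the labels and the study's methods, the authors trimmed reads with Trim Galore 0.6.4, aligned them with Bowtie2 2.4.5 to mm10, filtered them with SAMtools 1.16.1 and called peaks in each library with MACS 1.4.2; the order of these tools is as the study gives it. The deposited score of a peak is -10 times log10 of its p-value, with a lowest value of 50. The deposited signal of a summit is its pileup, a whole number of tags not scaled to depth. The number of reads is not given in the sources used here.

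Peaks were read into 1-based coordinates and merged at an overlap of 1 bp with Python 3.11.15, numpy 2.4.6 and pandas 2.3.3, and figures were drawn with matplotlib 3.10.9. Merging and the permutation test were tested on simulated data. Groups came from sample titles; the 3 samples titled ESC have MEF as source. The 3 ESC libraries are not stated to be separate cultures, so their SD may be technical.

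Described in full were elements within 1 kb of a start, ESC-only elements with a peak on at least 4 days, the 5 ESC-only and 3 MEF-only elements with the highest scores, those with at least 3 more days in one path, and those in neither MEFs nor ESCs on at least 3 days in all. The +42, +72, +123.4 and +129 kb elements were added after their values were seen, as were the +4 kb sequence and the +123 and +158 kb elements named among the alternatives. Esrrb, its elements and all gene and motif lists were chosen with earlier results of these data known. Motif shares used 300 bases around the top summit of 335775 regions on the 21 chromosomes of GRCm38.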

Additional observations from a re-analysis of the deposited data

How the results depend on the processing

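Every adjusted p on days with a peak was 1.0, so no call on a single element could be lost. For the 14 named elements listed on any day, 178 comparisons of the difference in days with an alternative were made, of which 145 kept its sign, 7 became 0 and 2 turned, while 21 differences of 0 stayed 0 and 3 became a difference. With log2 relative height in place of presence, +0, +110 and +149 kb turned to -0.16, -0.21 and -0.028. Libraries without a peak are set to their lowest listed pileup there, which by itself gives -0.317 to an element listed on no day, so these values hold that offset and are not read as lower accessibility. The difference at +61 kb turned to 2 more days with NanogN70 at a minimum score of 100, +73 kb to 1 more day when peaks up to 200 bp apart were joined, and the mean log2 height difference of +149 kb to 0.10 against the median of all summits, and the cause of these was not tested. At a minimum score of 100, MEF-only elements fell to 3, elements with at least 3 more days to 3 (NanogN70) and 0 (Nanog), and elements with a p under 0.05 before adjustment to 0. With the 44126 top-scoring peaks of each library, ESC-only elements fell to 8, MEF-only to 0 and those with a p under 0.05 to 0. Elements with at least 3 more days with Nanog then rose to 2, which were +38 and +61 kb. The single p under 0.05, at +38 kb, gave a count of 0 without day 3, a range of 0 to 1 over the days left out in turn, and 4 with relative height (+38, +73, +123 and +158 kb, whose values hold some of this offset, adjusted p 0.314 to 0.316 by the exact permutation test with Benjamini-Hochberg adjustment). No element had an adjusted p under 0.05 in any of these alternatives, and given the lowest p of the test no conclusion is drawn from this. The mean daily difference ranged from 1.12 to 1.57 for ESC-only elements and from 1.88 to 3.57 for all elements. Leaving out an ESC library gave 15 to 18 ESC-only and 7 to 8 MEF-only elements. Depth is unknown, and an element without a peak may be open under the detection limit of its library, whose lowest listed pileup was 3 to 5. The main test pairs the paths by day, and replicate numbers, which ESCs alone carry, could give no block.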

Other observations

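Peaks that followed exons were listed at the 3′ end of Esrrb. In ESC library 3, a peak with a score of 221 and a pileup of 20 ran from 86514280 to 86514531, from 1 base before the start of exon 6 to 19 bases before its end, and the other 2 ESC libraries had no peak there. In MEFs, a peak with a score of 376 and a pileup of 24, the highest Esrrb score of that library, ran from 86518800 to 86519060, from 21 bases before exon 7 to 2 bases before the last coding base. ESC library 3 also had a peak over this exon, from 86518613 to 86519103, at a pileup of 26. No peak was listed there with NanogN70, and with Nanog the element was listed on day 8 at 6.

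The paralogs of Esrrb were counted with 20 kb on each side. Esrra, which is broadly expressed, had 1 ESC-only region of 10 (10.0%), which neither path opened. Esrrg had 4 of 82 (4.88%), where 16.5% of all regions were ESC-only. NanogN70 opened 2 of these 4 and Nanog 1, where 30.8% and 17.3% of all ESC-only regions were opened. Both genes had a peak within 2 kb of a start in MEFs, in all 3 ESC libraries and on all 8 days of both paths.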
